A study of Mus musculus with 2 samples.

Results

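The β-globin genes Hbb-bh1, Hbb-y, Hbb-bs and Hbb-bt were taken by name from the spliced and unspliced count matrices, where they are 4 of 29453 genes. They were followed in blood cells of Gata1- chimaeric mouse embryos, along those cells by their α-globin level, and in cells of other tissues. The embryos were made by injecting 1 male embryonic stem cell (ESC) clone into wildtype C57BL/6 blastocysts. The clone carried tdTomato from a ROSA26tdTomato by C57BL/6 cross and a frameshift of 38 bp in exon 4 of Gata1. A pool of 6 embryos was sorted into tdTom+ cells (Gata1-) and tdTom- cells (wildtype host), and each fraction gave 1 10x library of whole embryos. The labels give E8.5 for the tdTom+ library and E8.6 for the tdTom- library, although both came from the same pool. With 1 library per fraction there is no spread between embryos and no test, and the ESC clone, its strain background and its Gata1 genotype cannot be told apart. Intervals are exact, at 95%, and cover counting error only.

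Haemoglobin joins α-type and β-type chains. In the mouse, the first erythrocytes arise in the yolk sac and use the embryonic β-type genes Hbb-bh1 and Hbb-y. Hbb-bs and Hbb-bt encode the adult β chains of C57BL/6 mice, which become the main β-type chains of definitive red cells. All 4 genes share a distal locus control region, which GATA1, KLF1 and the TAL1 complex are known to bind. In primitive red cells of the mouse, the relative use of Hbb-bh1 and Hbb-y is known to shift towards Hbb-y as cells mature.

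The 4 genes lie on the minus strand of chromosome 7 (GRCm38, GENCODE M21), each with 3 exons in its first listed transcript. In the direction of transcription the order is Hbb-y at chr7:103851749-103853216 (ENSMUSG00000052187), Hbb-bh1 at chr7:103841637-103843164 (ENSMUSG00000052217), Hbb-bs at chr7:103826534-103828096 (ENSMUSG00000052305) and Hbb-bt at chr7:103812524-103813996 (ENSMUSG00000073940). Hbb-bs and Hbb-bt are near copies. Of the 91-base stretches of the Hbb-bs transcript, 340 of 538 (63.2%) were also in Hbb-bt, and 340 of 613 (55.5%) the other way. In the last 300 nt, where 3′ reads begin, 51 of 210 stretches of Hbb-bs were shared. How reads matching both were assigned is not given in the sources used here, so the split between Hbb-bs and Hbb-bt is uncertain to that extent. Alleles of another strain in the ESC clone would be counted on the reference pair, which was not tested. No 91-base stretch of Hbb-bh1 or Hbb-y was shared with another member.

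The promoters of the 3 members matched in the RefSeq table, Hbb-y, Hbb-bs and Hbb-bt, are shown because these genes differed in level and pattern between the fractions. That of Hbb-bh1 is not shown. The 150 bases before each start are from RefSeq (GRCm38.p6), minus strand, 5′ to 3′, and capitals mark matches to CCACCC or CCACACCC, CCAAT or its reverse complement ATTGG, and ATAAA. The stretches are chr7:103853208-103853357 for Hbb-y, chr7:103827929-103828078 for Hbb-bs and chr7:103813924-103814073 for Hbb-bt. They are counted from the RefSeq starts, which lie inside the GENCODE spans given above, so that the Hbb-bs stretch and part of the Hbb-y and Hbb-bt stretches fall within those spans.
Hbb-y: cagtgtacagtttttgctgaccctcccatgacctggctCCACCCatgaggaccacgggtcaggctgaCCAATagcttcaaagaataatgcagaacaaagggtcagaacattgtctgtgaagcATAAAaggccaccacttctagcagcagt
Hbb-bs: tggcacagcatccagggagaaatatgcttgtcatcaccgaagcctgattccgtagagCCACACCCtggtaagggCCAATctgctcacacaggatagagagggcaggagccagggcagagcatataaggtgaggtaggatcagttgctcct
Hbb-bt: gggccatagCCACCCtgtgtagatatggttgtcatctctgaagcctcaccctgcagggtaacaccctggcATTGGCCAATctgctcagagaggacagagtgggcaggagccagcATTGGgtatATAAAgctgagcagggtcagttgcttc

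The full 200 bases before each start were searched on both strands. Hbb-bs held CCACACCC and Hbb-y and Hbb-bt held CCACCC, and 26.0% of 32851 promoters held either of these words. CCAAT was in all 3 windows and in 29.3% of promoters. ATAAA was in the windows of Hbb-y and Hbb-bt and in 30.8% of promoters. A GATA word (AGATAA, with T also taken as its first and G as its last base) was found in the Hbb-y window alone, at -162 to -157 and so upstream of the stretch shown, and 21.4% of promoters held one. These are matches of letters in a short window.

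The 2 libraries held 8981 tdTom+ and 9252 tdTom- barcodes with 167940767 and 157174026 spliced UMIs (unique molecules counted). All barcodes were clustered without the globin genes. After removal of 395 and 565 likely doublets and of the clusters they dominated, 8572 and 8682 cells were kept. Blood cells numbered 1623 in the tdTom+ and 1478 in the tdTom- fraction. In the tdTom+ fraction, 1377 were blood progenitor-like, 208 myeloid-like, 37 erythroid-like and 1 megakaryocyte-like. In the tdTom- fraction, 1364 were erythroid-like, 84 megakaryocyte-like, 29 myeloid-like and 1 progenitor-like. Gata1 in blood cells stood at 27.0 CPM (spliced UMIs of a gene per 1e6 spliced UMIs of the same cells) in the tdTom+ fraction. In the tdTom- fraction it stood at 131 CPM, so that the log2 fold of tdTom+ over tdTom- was -2.28 (-2.39 to -2.18). Unspliced Gata1 UMIs went the other way, with 1331 in tdTom+ and 331 in tdTom- blood cells, or 58.4% and 8.11% of its UMIs. Reads from its 3′ end lie outside the frameshift and do not check it. The libraries shared 18 barcodes, and 0 of these were blood cells in both.

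All 4 β-globin genes were lower in tdTom+ than in tdTom- blood cells, by very different amounts. Hbb-bh1 had 9127 CPM (320639 UMIs) in the tdTom+ blood cells, which was 2.85-fold below the 26001 CPM (742916 UMIs) of the host. Hbb-y, the other embryonic gene, had 1443 CPM (50692 UMIs), 9.02-fold below the host's 13016 CPM (371891 UMIs). The difference was thus unequal within the embryonic pair, with the log2 fold at -1.51 (-1.52 to -1.50) for Hbb-bh1 and -3.17 (-3.19 to -3.16) for Hbb-y. Hbb-bs differed most, with 13.3 CPM (468 UMIs) against 549.7 CPM (15707 UMIs), or -5.37 (-5.50 to -5.23) in log2. Hbb-bt had 26.0 CPM (912 UMIs) against 129 CPM (3676 UMIs), or -2.31 (-2.42 to -2.20) in log2. Summed over all blood cells, the order of the adult pair was thus opposite in the 2 fractions. Hbb-bt was above Hbb-bs in tdTom+ cells and Hbb-bs above Hbb-bt in tdTom- cells. At like α-globin levels (defined below) the order was not opposite throughout. These UMIs are taken at the 3′ end, once per molecule, so genes were compared without a length correction.

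The 4 members were among the 3.14% of 9463 genes at least 2-fold lower in tdTom+ blood cells, and 11.3% were at least 2-fold higher. The median gene was at a log2 fold of 0.22, and relative to it the members stood at -1.73, -3.39, -5.59 and -2.53 in the order Hbb-bh1, Hbb-y, Hbb-bs, Hbb-bt. On that scale 385 genes were lower and 815 higher, against 297 and 1074 by library total. Lower folds than that of Hbb-bs were seen for 10 genes, and lower folds than that of Hbb-bh1 for 172. The cell types also differ between the fractions, and fewer mature cells and less globin RNA per cell cannot be told apart in these summed values.

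Within the blood cells the members followed cell type and fraction together. In tdTom- cells Hbb-bh1 was at 28569 to 29822 CPM in the 3 large erythroid-like sub-clusters 1, 3 and 5, at 18478 CPM in erythroid-like sub-cluster 6 (258 cells) and at 9335 CPM in the megakaryocyte-like cells (84 cells). Hbb-y spanned a wider range over the same groups, from 14696 to 18141 CPM in the first 3, to 3297 CPM in sub-cluster 6 and 669 CPM in the megakaryocyte-like cells. Hbb-bs ran from 478 to 738 CPM in the large erythroid-like groups to 371 and 197 CPM in the latter 2. Hbb-bt stayed closer, with 139 to 154 CPM against 69.8 and 68.1 CPM. Sub-clusters 1, 3 and 5 lay within 1.5-fold of each other for Hbb-bh1, Hbb-y and Hbb-bt, and there is no second library to set that difference against.

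In tdTom+ cells the highest Hbb-bh1 level, 13683 CPM, was in progenitor-like sub-cluster 8 (220 cells), followed by sub-clusters 2 and 0 with 11231 and 10858 CPM. Each was below sub-cluster 6, the lowest of the host's large erythroid-like groups. Hbb-y in sub-clusters 8, 2 and 0 stood at 2716, 1464 and 1545 CPM, above the 669 CPM of the host's megakaryocyte-like cells, which had 9335 CPM of Hbb-bh1. Sub-cluster 4 (302 cells), led by the myeloid regulator gene Spi1, still held 5979 CPM of Hbb-bh1 and 1197 CPM of Hbb-y. Myeloid-like sub-cluster 16 (81 cells), with the granule genes Mpo and Prtn3, had 1304 CPM of Hbb-bh1, but its median cell had 154 CPM and 5% of its cells held 47.7% of these UMIs. Hbb-bt in that sub-cluster was at 32.8 CPM (23.8 to 44.0), within the 28.5 to 34.3 CPM of progenitor-like sub-clusters 2, 4 and 8 and above the 19.3 CPM of sub-cluster 0, and Hbb-bs at 0.746 CPM. These Hbb-bt values rest on few cells. The top 5% of cells held 65.9% of its UMIs in sub-cluster 16 and 81.2% in sub-cluster 2, where 1 cell had 100. The other myeloid-like group, sub-cluster 12, held 4 myeloid, 4 endothelial and 4 blood progenitor markers, and Cd34 and Cdh5 were among its leading genes. In it Hbb-bh1 had 135 CPM (tdTom+) and 210 CPM (tdTom-), against 101 and 280 CPM over all cells outside blood. Hbb-bt was above the level outside blood in its tdTom+ cells, with 6.87 CPM (18 UMIs, in 8 of 127 cells and 8 of them in 1 cell) against 0.335 CPM, and Hbb-y was at 33.6 against 15.6 CPM.

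Sub-cluster 14 was the only erythroid-like group with over 20 cells of both fractions, 34 tdTom+ and 56 tdTom-. It was led by Cdkn1a and Ccng1, genes known as targets of the p53 stress response, and held 6 erythroid and 5 blood progenitor markers. Of the 37 tdTom+ erythroid-like cells, 34 lay here, and 21 of the 37 had an α-globin level (defined below) under 10. In the host 3 of 1364 did, so the fractions of this group were not matched in globin content. Its tdTom+ cells had 7569 CPM of Hbb-bh1 against 38542 CPM in its tdTom- cells, or -2.35 in log2. Hbb-y stood at 518 and 25309 CPM, Hbb-bs at 15.9 and 1103 CPM, and Hbb-bt at 21.2 and 146 CPM. The log2 folds were lower here than over all blood cells for each member, although the intervals of Hbb-bs (-7.25 to -5.19, 9 and 1034 UMIs) and Hbb-bt (-3.78 to -1.94, 12 and 137 UMIs) held the value over all blood cells. Without sub-cluster 14, an alternative added after the data had been seen, the log2 folds over blood cells were -1.48 for Hbb-bh1 and -3.11 for Hbb-y.

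**Figure D1:**
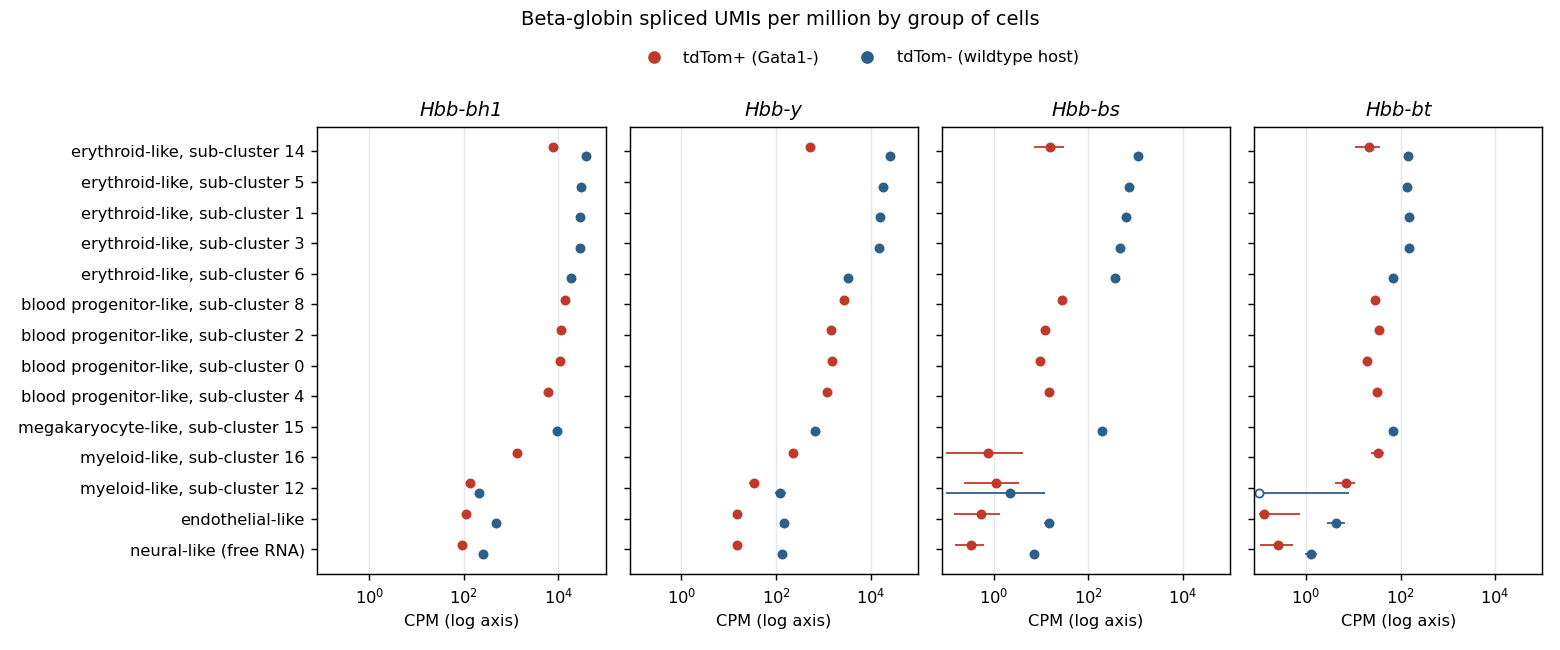
CPM of Hbb-bh1, Hbb-y, Hbb-bs and Hbb-bt (spliced UMIs, log axis) in the blood, endothelial-like and neural-like cell groups of each fraction with at least 20 cells. Points are the summed value of a group in 1 library, an open circle marks 0 UMIs, and the tdTom+ progenitor-like groups lie below the tdTom- erythroid-like groups for every member.

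Blood cells were next placed by their α-globin level, the UMIs of Hba-x, Hba-a1 and Hba-a2 per 10000 UMIs outside the globin genes. The bins were under 10, 10 to 30, 30 to 100, 100 to 300, 300 to 1000 and 1000 to 3000. Bins from 30 upwards held mostly progenitor-like cells in tdTom+ and erythroid-like cells in tdTom-. Under 10, the 74 tdTom- cells were 44 megakaryocyte-like, 27 myeloid-like and 3 erythroid-like, while 349 of the 579 tdTom+ cells were progenitor-like and 208 myeloid-like. That bin was the largest of the tdTom+ fraction and 300 to 1000, with 1060 cells, the largest of the tdTom- fraction, and 166 tdTom- but 0 tdTom+ cells were at 1000 to 3000. The bin of 100 to 300 was best filled in both, with 384 tdTom+ and 138 tdTom- cells. In each bin that held both fractions, the median level of 10 haem and erythroid genes was lower in tdTom+ cells. At 100 to 300 it was 16.9 against 26.3 per 10000 UMIs outside the globin genes. Cells of a bin thus need not share a stage. Hbb-bh1 rose with α-globin within each fraction (Spearman's rho 0.79 and 0.87), so the bins match cells in part for Hbb-bh1 too.

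At 100 to 300 the embryonic genes were not lower in tdTom+ cells. The tdTom+ cells had 15888 CPM of Hbb-bh1 and the host 15825 CPM, or 0.01 (-0.01 to 0.02) in log2. Of Hbb-y they had 2522 CPM and the host 1583 CPM, or 0.67 (0.62 to 0.72). The adult pair stayed lower. Hbb-bs was at 19.9 against 218 CPM, or -3.45 (-3.71 to -3.20), and Hbb-bt at 33.8 against 133 CPM, or -1.97 (-2.21 to -1.74). Hbb-bs and Hbb-bt were thus the 2 members past 2-fold, in a bin where 2.45% of 6246 genes were at least 2-fold lower and 3.52% higher. Hba-x, the embryonic ζ chain gene that is itself part of the α-globin level, was at -0.58 there, and the other 2 genes of that level, Hba-a1 and Hba-a2, were at 0.86 and 0.73.

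Across the other bins Hbb-bs stayed far lower in tdTom+ cells. It stood at 6.69 against 30.01 CPM under 10, at 11.3 against 167 CPM at 30 to 100, and at 50.8 against 589 CPM at 300 to 1000. Hbb-bt was lower too, with 25.4 against 44.7 CPM under 10, 26.8 against 51.3 CPM at 30 to 100 and 14.5 against 123 CPM at 300 to 1000. At 10 to 30, where the tdTom- fraction had 19 cells, Hbb-bs stood at 14.5 against 36.8 CPM and Hbb-bt at 15.1 against 120 CPM, so the gap of Hbb-bt had no order along α-globin. In tdTom- cells Hbb-bs was higher in each bin than in the one before, up to 830 CPM at 1000 to 3000, while in tdTom+ cells it was between 6.69 and 19.9 CPM in all bins below 300. Hbb-bt was highest in tdTom- cells at 1000 to 3000, with 198 CPM, and lay between 14.5 and 33.8 CPM in the tdTom+ bins with no order along them. Hbb-bt was above Hbb-bs in both fractions under 10 and at 10 to 30, in the latter by little in tdTom+ cells. At 300 to 1000 Hbb-bs was above Hbb-bt in both fractions. The order of the pair was opposite between the fractions at 30 to 100 and 100 to 300.

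Hbb-bh1 and Hbb-y had no single direction over the bins. Under 10, Hbb-bh1 stood at 2516 against 1435 CPM and Hbb-y at 504 against 297 CPM. At 30 to 100, Hbb-bh1 stood at 11203 against 9484 CPM and Hbb-y at 1583 against 568 CPM, with 21 tdTom- cells behind the latter values. At 300 to 1000 both were lower in the 44 tdTom+ cells, with 22467 against 27134 CPM for Hbb-bh1 and 4966 against 12099 CPM for Hbb-y. Within that bin the tdTom+ cells were lower in α-globin, with a median of 358 against 638, and in the bin of 100 to 300 the medians were 159 and 232. Bins of 1.5-fold width, added after the data had been seen, gave Hbb-y at 4655 against 3406 CPM and Hbb-bh1 at 20431 against 18921 CPM at 256 to 384, where 52 tdTom+ and 131 tdTom- cells lay. No narrower bin above 384 was compared, so the lower Hbb-y at 300 to 1000 was not checked above that level.

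**Figure D2:**
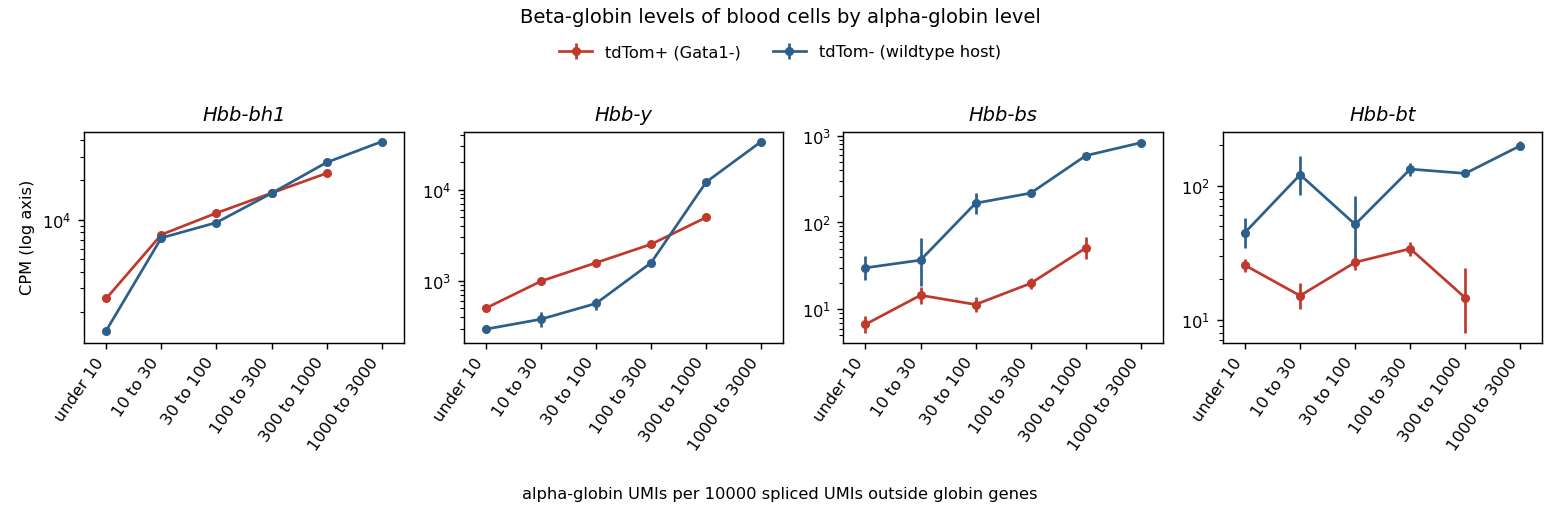
CPM of each member (spliced UMIs, log axis) against the α-globin level of blood cells, for bins with at least 10 cells of a fraction. Hbb-bh1 meets between the fractions at 100 to 300 (15888 and 15825), while Hbb-bs is lower in tdTom+ cells in every bin drawn for both fractions.

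Over the 4 bins with at least 20 cells in each fraction, weighted equally, the mean log2 fold was 0.20 for Hbb-bh1, 0.41 for Hbb-y, -3.26 for Hbb-bs and -1.70 for Hbb-bt. The first 2 depend on which bins enter the mean. Over the bins of 100 to 300 and 300 to 1000 alone, an alternative added after the data had been seen, they were -0.13 and -0.31, against -3.49 and -2.53 for Hbb-bs and Hbb-bt. Erythroid-like and progenitor-like cells alone, which filled only those 2 bins, gave -0.12 and -0.33, against -3.49 and -2.54. With cells binned by haem and erythroid genes in place of α-globin, they were 0.90 and 1.18, against -2.51 and -1.26. These bins went both ways for the embryonic pair, with Hbb-bh1 at 2.00 and Hbb-y at 2.26 in the lowest of them (563 and 57 cells), but -0.36 and -0.34 in the best filled (462 and 158 cells). In the lowest, Hbb-bs was at -0.88 (-1.65 to -0.02) and Hbb-bt at 0.31 (-0.32 to 1.03), against -4.54 and -2.33 in the best filled. The mean of the adult pair was negative under each alternative named here.

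The make-up of the β-globin UMIs also differed between the fractions. Hbb-bh1 made 86.0% of them in tdTom+ and 65.5% in tdTom- blood cells, and Hbb-y 13.6% and 32.8%. Taken as a mean over cells, the difference went from 20.5 to 12.8 percentage points for Hbb-bh1 and from -19.2 to -11.4 for Hbb-y. Hbb-bs made 0.126% and 1.38%, and Hbb-bt 0.245% and 0.324%. Under 10 the Hbb-y share was 16.5% in tdTom+ and 16.4% in tdTom- cells, where the Hbb-y level of 504 and 297 CPM stood beside 14.9 and 132 CPM in neural-like cells of the same library. In tdTom- cells it was 4.90% at an α-globin level of 10 to 30, then 5.53%, 8.91%, 30.3% and 45.6% in the next 4 bins, while the Hbb-bh1 share went from 93.1% down to 53.0%. In tdTom+ cells the Hbb-y share was 11.4%, 12.3%, 13.7% and 18.1% from the bin of 10 to 30 to that of 300 to 1000. In both fractions the share was thus higher in each bin from 10 upwards, and the bin under 10 lay above the next 3. Globin genes took 1.73% of all spliced UMIs in tdTom+ and 9.52% in tdTom- blood cells, and α-globin to β-globin UMIs stood at 0.624 and 1.40.

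**Figure D3:**
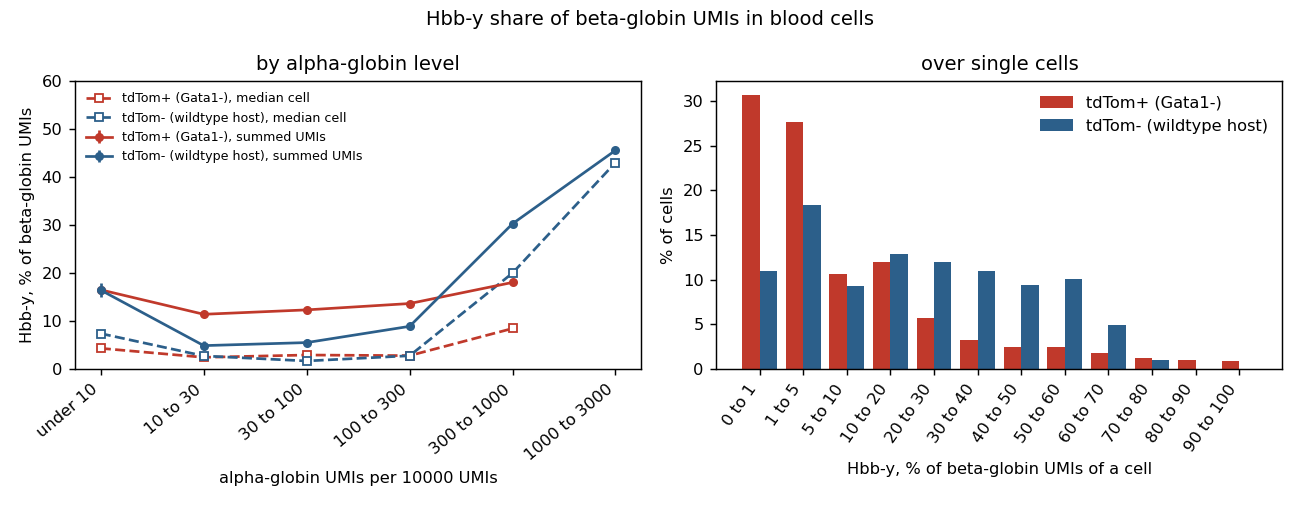
Hbb-y as a percentage of the β-globin UMIs of blood cells, by fraction. On the left, by α-globin bin, solid lines are shares of the summed UMIs of all blood cells. Dashed lines there are the median cell among those with at least 20 such UMIs. On the right is the spread over those single cells, not split by bin. The median cell is at 2.81% (tdTom+) and 2.79% (tdTom-) at 100 to 300, and reaches 43.0% in tdTom- cells at 1000 to 3000.

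Single cells differed widely in Hbb-y. Of the blood cells, 1309 tdTom+ and 1424 tdTom- had at least 20 β-globin UMIs, and 314 and 54 were left out. The median cell gave 3.28% of these UMIs to Hbb-y in the tdTom+ and 19.0% in the tdTom- fraction. The middle 50% of cells lay between 0.708% and 14.04% in tdTom+ and between 3.21% and 40.6% in tdTom- cells, so the fractions overlapped. At 100 to 300 the medians were 2.81% and 2.79%, close to each other, although the summed share was higher in tdTom+ cells. Of the tdTom+ cells 100 (7.64%, 6.26 to 9.21%) had more Hbb-y than Hbb-bh1, and of the tdTom- cells 233 (16.4%, 14.5 to 18.4%).

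The tdTom+ cells in which Hbb-y led were not the most haemoglobinised. They had a median of 146 Hbb-y and 51.5 Hbb-bh1 UMIs, against 5 and 227 in the other tdTom+ cells, at a like depth of 21311 and 21704 spliced UMIs. Their median α-globin level was 25.7, below the 56.2 of the others. Cells in which Hbb-y led were picked in part by low Hbb-bh1, which rose with α-globin, so a lower level is partly set by the choice. In the tdTom- fraction such cells were above the others in α-globin, with 828 against 582. By tdTom+ sub-cluster, Hbb-y led in 4 of 23 cells (17.4%) of myeloid-like sub-cluster 16 and in 32 of 231 (13.9%) of the Spi1-led sub-cluster 4. It led in 32 of 491 cells (6.52%) of sub-cluster 0, and in 5.30%, 6.48% and 4.76% of sub-clusters 2, 8 and 14. Sub-clusters 16 and 4 were also the lowest of these in Hbb-bh1, so the same limit applies to their shares. Over cells with at least 20 β-globin UMIs, Spearman's rho between the Hbb-y share and the α-globin level was 0.00 in 1309 tdTom+ and 0.50 in 1424 tdTom- cells, and the cells of a fraction share a library. The fractions spanned different α-globin ranges, with 44 tdTom+ cells above 300, and below 300 the median share of the tdTom- bins from 10 upwards was also low, at 2.75%, 1.70% and 2.79%. The corresponding rho of the Hbb-y level itself, over all blood cells, was 0.42 and 0.66, and that of Hbb-bh1 0.79 and 0.87.

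Hbb-y UMIs lay in fewer cells than those of Hbb-bh1. The 5% of tdTom+ blood cells with most Hbb-y held 52.9% of its UMIs, against 26.8% in tdTom- cells, and for Hbb-bh1 these shares were 17.5% and 11.2%. Such shares also depend on the level, which was lower in tdTom+ cells. The median tdTom+ blood cell had 7805 CPM of Hbb-bh1 and 166 CPM of Hbb-y, and the median tdTom- cell 26216 and 5264 CPM. The tdTom+ cell highest in Hbb-y reached 39146 CPM, above the tdTom- median.

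Few tdTom+ cells held many UMIs of the adult genes. At least 10 UMIs of the pair were found in 30 tdTom+ cells (1.85% of blood cells) and 553 tdTom- cells (37.4%). These cells held 40.2% of the pair's UMIs in tdTom+ and 86.4% in tdTom- blood cells, so most adult-globin UMIs of the tdTom+ fraction lay in cells with fewer. Most of these tdTom+ cells used a single gene of the pair, with 17 cells at 95% or more Hbb-bt, 8 at 5% or less and 5 between. In tdTom- cells 28 were at 95% or more Hbb-bt, 259 at 5% or less and 266 between. Hbb-bt thus led in 19 of 30 tdTom+ cells (63.3%) and in 83 of 553 tdTom- cells (15.01%). The highest Hbb-bt count of a cell was 100 UMIs in tdTom+ and 89 in tdTom- cells. The former was a single cell, and the next tdTom+ cell had 22 UMIs. The highest Hbb-bs count was 36 in tdTom+ and 195 in tdTom- cells.

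**Figure D4:**
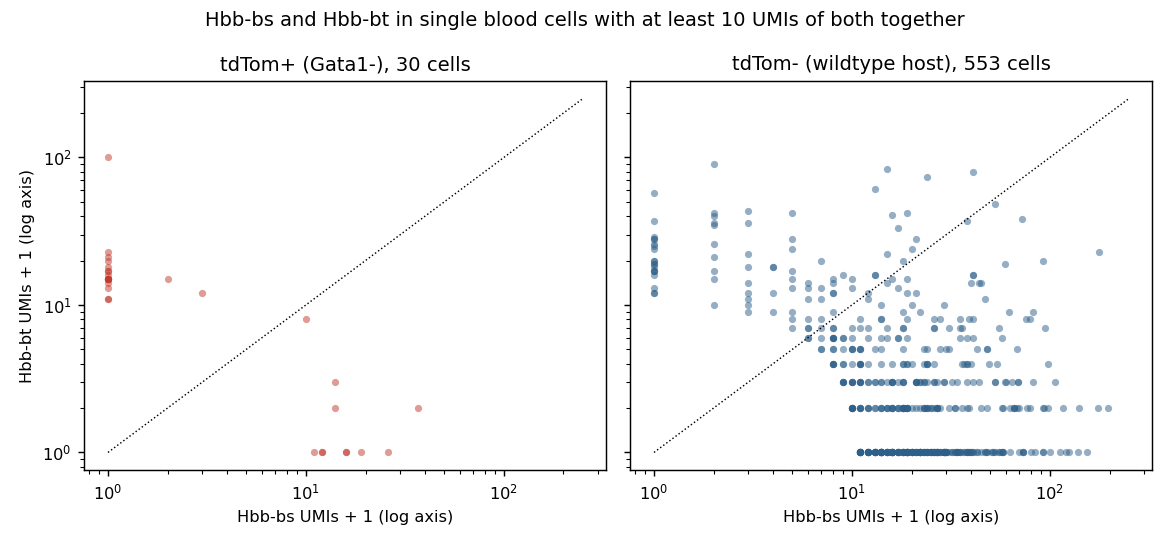
UMIs of Hbb-bt against UMIs of Hbb-bs in each blood cell with at least 10 UMIs of the pair, 30 tdTom+ and 553 tdTom- cells. Many cells lie along 1 axis or the other, and the tdTom+ cells lie mostly along the Hbb-bt axis.

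Almost all UMIs of the members were spliced. Unspliced UMIs of Hbb-bh1 numbered 199 in tdTom+ and 776 in tdTom- blood cells, 0.0620% (0.0537 to 0.0713%) and 0.104% (0.0971 to 0.112%) of its UMIs. For Hbb-y they numbered 10 and 280, or 0.0197% (0.00946 to 0.0363%) and 0.0752% (0.0667 to 0.0846%). Summed over all blood cells, the share was lower in tdTom+ cells for both, and the intervals did not overlap. At 100 to 300, where the spliced level of Hbb-bh1 was alike, the unspliced share was 0.055% (0.043 to 0.069%) and 0.171% (0.133 to 0.218%). At 300 to 1000 it was 0.0554% (0.0286 to 0.0967%) and 0.105% (0.0969 to 0.114%), with intervals that almost met. In the lower bins the Hbb-bh1 intervals overlapped between the fractions. Those of Hbb-y overlapped in every bin that held both fractions, with 6 and 2 unspliced UMIs at 100 to 300 and 0 and 202 at 300 to 1000. Hbb-bs had 1 and 49 unspliced UMIs and Hbb-bt 1 and 1, too few to compare. Over all genes 11.3% and 9.91% of UMIs in blood cells were unspliced, so the members were far below the share over all genes in both fractions.

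Globin UMIs were also found outside blood, here taken as the 6443 tdTom+ and 6834 tdTom- cells outside the haemato-endothelial clusters. The endothelial-like cells are given apart from these. In neural-like cells (1549 tdTom+ and 2269 tdTom-), which should lack these genes, Hbb-bh1 was at 92.9 and 257 CPM, Hbb-y at 14.9 and 132 CPM, Hbb-bs at 0.336 and 7.13 CPM and Hbb-bt at 0.262 and 1.28 CPM. Per 100 Hbb-bh1 UMIs, Hbb-y stood at 15.8 in blood and 15.5 outside it in the tdTom+ library, and at 50.1 and 52.5 in the tdTom- library. Hba-x stood at 55.8 and 59.2, and at 194 and 190. For Hbb-y and Hba-x the proportions outside blood were thus near those of the blood cells of the same library when all these cells were summed. Hbb-bs was above them outside blood, with 0.146 in blood and 0.288 outside in the tdTom+ library, and 2.11 and 2.96 in the tdTom- library. A single cell held 174 of the 882 Hbb-bs UMIs outside blood in the tdTom- library, and without it the value there was 2.43. Also above were Hba-a1, with 13.7 and 18.5, and 14.4 and 17.7, and Hba-a2, with 3.16 and 4.24, and 4.498 and 5.58. Some cell groups that are not blood departed in either direction. Per 100 Hbb-bh1 UMIs, Hbb-y was at 70.4 (66.0 to 74.99) in cardiomyocyte-like and 30.6 (28.3 to 33.1) in endothelial-like cells of the tdTom- library, and at 8.09 (5.49 to 11.5) in gut endoderm-like cells of the tdTom+ library. The endothelial-like value was 44.9 without the 2 cells highest in Hbb-bh1, which held 963 of 2652 UMIs. Over the clusters outside blood, Hbb-y made 6.99% to 17.9% of β-globin UMIs in the tdTom+ and 17.5% to 50.4% in the tdTom- library.

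Of each member's UMIs in the cells kept after doublet removal, between 92.7% and 96.4% lay in blood cells in both libraries. The barcodes left out held globin UMIs too. Hbb-bh1 had 371775 UMIs over all tdTom+ barcodes and 332701 in the kept cells, and 881701 and 775496 in the tdTom- library. Outside the haemato-endothelial clusters, 20 tdTom+ (0.310%) and 88 tdTom- cells (1.29%) had at least 20 β-globin UMIs, and they held 15.3% and 20.1% of the β-globin UMIs there. In the endothelial-like sub-cluster 7, marked by Lyve1, tdTom- cells had 752 CPM of Hbb-bh1, but 1 cell held 641 of the 889 UMIs. The median cell there was at 219 CPM, as was the median neural-like cell of that library.

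**Figure D5:**
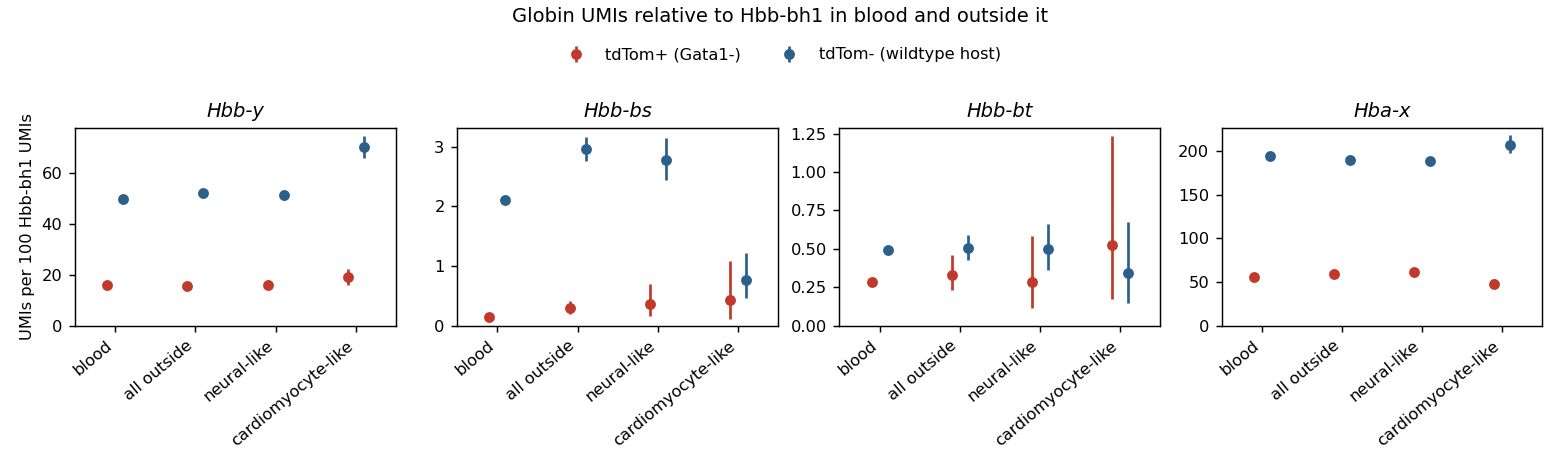
UMIs of Hbb-y, Hbb-bs, Hbb-bt and Hba-x per 100 Hbb-bh1 UMIs, with exact 95% intervals (counting error only), in blood cells and in cells outside blood of each library. Hbb-y is at 15.8 and 15.5 in the tdTom+ library and at 50.1 and 52.5 in the tdTom- library.

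The share of cells with a UMI was compared after thinning each cell to 5000 spliced UMIs, with 13 tdTom+ and 36 tdTom- blood cells too shallow. Hbb-y was then found in 56.3% of tdTom+ and 89.9% of tdTom- blood cells, against 6.38% and 46.2% of neural-like cells. Hbb-bh1 was found in 88.3% and 98.8% of blood cells, and in 34.5% and 69.6% of neural-like cells. The share for every member was above the neural-like background of its own library, which for the embryonic pair was itself high in the tdTom- library. Hbb-bs was found in 3.79% and 57.6% of blood cells (0.197% and 2.77% of neural-like cells). Hbb-bt was found in 7.20% and 24.6% (0.131% and 0.727%). Unthinned, with median depths of 21165 and 18898 spliced UMIs in blood and 16807 and 15310 in neural-like cells, the blood shares were 96.2% and 99.8% for Hbb-bh1, 77.0% and 98.2% for Hbb-y, 9.98% and 74.2% for Hbb-bs and 17.2% and 46.5% for Hbb-bt.

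Other genes of the haemoglobin system were compared in the same blood cells. Of 4 α-globin genes with enough UMIs, 3 were at least 2-fold lower in tdTom+ cells, Hba-x at -3.31, Hba-a1 at -1.59 and Hba-a2 at -2.02 on the log2 scale. Hba-x, the embryonic α-type gene, was thus close to Hbb-y, and the adult-type Hba-a1 close to Hbb-bh1. The remaining tested gene, Hbq1b, was at -0.21 (-0.34 to -0.09), with 1082 tdTom+ and 1021 tdTom- UMIs. At an α-globin level of 100 to 300 Hbq1b was higher in tdTom+ cells, at 1.49 (1.07 to 1.94). Hbq1a had 26 and 16 UMIs over all blood cells, under the minimum of 100. Of 14 genes for haem synthesis and haemoglobin assembly 10 were lower and 0 higher, against 3.14% and 11.3% of all genes, with a list median of -1.47 against 0.22 over all genes. The mitochondrial iron importer gene Slc25a37 was at -3.37, Alas2, for the first enzyme of erythroid haem synthesis, at -3.17, and Uros, for a later enzyme, at -2.29. At an α-globin level of 100 to 300, 5 of the 14 were lower and 0 higher (2.45% and 3.52% of all genes).

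Of 17 genes that regulate the β-globin locus, 2 were lower in tdTom+ blood cells, Gata1 and Klf1 (-1.40), the latter a known activator of the adult β-globin genes. Sox6, a known repressor of Hbb-y, was higher at 5.71 (580 against 9 UMIs), as were Gata2 (5.00), Myb (3.97) and Klf2 (2.07), and the list median was 0.19. Over all genes 3.14% were lower and 11.3% higher. At 100 to 300, 1 of 14 was lower (Gata1) and 3 were higher (Gata2, Sox6 and Myb), against 2.45% and 3.52% of all genes. The repressor gene Bcl11a had 69 and 19 UMIs, under the minimum of 100. Hbb-bh2, a further gene of the cluster, had 193 tdTom+ and 454 tdTom- UMIs, a log2 fold of -1.53. Its level, 5.49 and 15.9 CPM, was below those of the 4 members.

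Over 72 cell groups of at least 50 cells, the genes most like each member were found by Pearson's r of log2(CPM + 10). The other members were left out of these rankings and are given last. These groups share 2 libraries and the blood groups dominate r. Hbb-bh1 was most like Hba-a1 (0.981), Hba-a2 and Blvrb (both 0.973), Cited4 (0.960) and Klf1 (0.941). Hbb-y was most like Hba-x (0.964), Hba-a2 (0.949), Hba-a1 (0.945), Blvrb (0.918) and Cited4 (0.900). Among the genes nearest to Hbb-bs were Mrap (0.955), Alas2 (0.944), Add2 (0.936) and Csf2rb (0.931). Among those nearest to Hbb-bt were Kcnn4 (0.976), Ell2 (0.972), Csf2rb (0.958) and Gata1 (0.952). Among the members, r was highest between Hbb-bh1 and Hbb-y (0.954) and lowest between Hbb-bh1 and Hbb-bs (0.860), and Hbb-bs and Hbb-bt, near copies in sequence, were at 0.883.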

How the data were processed

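Whole-embryo tdTom+ and tdTom- cells were profiled by 10x 3′ sequencing. The authors mapped reads to mm10 with Cell Ranger 3.0.2 (GRCm38.92 annotation), kept barcodes by emptyDrops and complexity, and deposited velocyto counts of spliced and unspliced UMIs per cell and gene, with the percent of mitochondrial UMIs per cell. No normalised values were used. Doublets were scored with Scrublet within scanpy 1.11.5, and all barcodes were clustered (leidenalg 0.10.2) without globin genes, Gata1, tdTomato, Xist, Tsix and Y-linked genes. Likely doublets and clusters with over 50% of them were then left out, before the haemato-endothelial cells were clustered again. Clusters were named from marker lists, and the rule for haemato-endothelial clusters was adjusted after the data were seen. UMIs were summed per fraction and cell group and given as CPM of spliced UMIs. Globin UMIs are part of that total. The log2 fold is tdTom+ over tdTom- with an exact conditional interval, and a gene was counted as lower or higher past 2-fold with an interval excluding 0 and at least 100 UMIs. The floor for a count of 0 is 3 counts. Named genes were the members, the α-globin genes, the 5 genes most like each member (other members left out), and up to 3 genes each way of the other lists. Of the genes most like Hbb-bs and Hbb-bt, 1 each is not reported here. Bcl11a and Klf2 were named after their values were seen. The fold and call rule was tested on simulated data. Alternatives varied scaling, thinning, doublets, bins and cell classes (NumPy 2.4.6, SciPy 1.17.1). Members and lists were chosen with earlier results of these data known.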

Additional observations from a re-analysis of the deposited data

Results flagged for a closer look

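The sign of the log2 fold of tdTom+ over tdTom- cells differed between α-globin bins of blood cells for both embryonic genes. Hbb-bh1 was at 0.81 in cells under 10 and at -0.27 in cells at 300 to 1000. Hbb-y was at 1.48 at 30 to 100 and at -1.28 at 300 to 1000. With 1 library per fraction, the difference between bins was not tested. In the 300 to 1000 bin the median α-globin level was 358 in tdTom+ and 638 in tdTom- cells. In bins of 1.5-fold width, added after the data had been seen, Hbb-y was at 0.51 at 171 to 256 and 0.45 at 256 to 384, and Hbb-bh1 at 0.14 and 0.11. No such bin was compared above 384.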

How the results depend on the processing

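No paired analysis was possible because each fraction has 1 library, and for the same reason no library could be left out in turn. Over all blood cells the 4 members were lower in tdTom+ cells under every alternative run. The log2 folds that moved beyond the counting interval were -1.63 (Hbb-bh1), -3.29 (Hbb-y) and -2.43 (Hbb-bt) relative to UMIs outside the globin genes, and -1.54 and -3.20 (Hbb-bh1, Hbb-y) with doublets kept. Median-ratio scaling gave -1.73, -3.39, -5.59 and -2.53 (Hbb-bh1, Hbb-y, Hbb-bs, Hbb-bt). Thinning gave -1.52 for Hbb-bh1 and -2.09 for Hbb-bt. Erythroid-like and progenitor-like cells alone gave -1.43 and -3.12, and leaving out sub-cluster 14 gave -1.48 and -3.11 (Hbb-bh1, Hbb-y). For the mean over α-globin bins, in the same gene order, haem and erythroid bins gave 0.90, 1.18, -2.51 and -1.26, and 1.5-fold bins 0.35, 0.57, -2.83 and -2.39. Subtracting the neural-like level gave 0.27 and 0.73 for the embryonic pair, and bins with 4 edges 0.13 and 0.097. The bins of 100 to 300 and 300 to 1000 alone turned the embryonic pair's direction, with -0.13 and -0.31, and gave -3.49 and -2.53 for the adult pair. Erythroid-like and progenitor-like cells alone, which filled only those 2 of the 4 bins, gave -0.12, -0.33, -3.49 and -2.54. The difference in β-globin share, taken as a mean over cells, was 12.8 percentage points for Hbb-bh1, -11.4 for Hbb-y and -0.0409 for Hbb-bt. Genes past 2-fold numbered 1371, and 2191 with a minimum of 20 UMIs. Other causes were not tested. Depth limits the unspliced comparison of Hbb-bs and Hbb-bt, and with 1 library per fraction no value has a biological error.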
